A study of Mus musculus with 2 samples.

Results

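The T cell receptor complex was followed through 10 genes: the signalling chains Cd3d, Cd3e, Cd3g and Cd247, the receptor constant genes Trac, Trbc1, Trbc2 and Trdc, and the coreceptor chains Cd8a and Cd8b1. They are taken by name as parts of the complex, with earlier results of these data known, and all 10 were among the 27635 genes of the expression table. The cells came from subcutaneous B16F10 melanomas, a transplantable mouse melanoma line, taken 14 days after transplantation. Cells were enriched on Percoll and then positively selected for CD3, and were captured in microwells (BD Rhapsody) with cDNA amplified by TAS-Seq. Cells of wild-type (WT) mice and of mice lacking Nr4a (Nr4a KO) went into 1 capture. The labels say neither which Nr4a gene was deleted, nor in which cells, nor how many mice were pooled. Hashtag antibodies marked the samples in a separate library, but no source used here says which genotype each hashtag stands for, so no genotype comparison was made. All values below therefore describe 1 pooled capture. Intervals are exact 95% intervals, binomial for shares of cells and Poisson for summed counts. They cover no more than counting error, and the Poisson ones treat each count as independent. With no replicate of the capture no test was made.

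An alpha beta T cell recognises peptide on MHC through a heterodimer of a TCR alpha chain and a TCR beta chain, whose constant ends are encoded by Trac and by Trbc1 or Trbc2. These chains have almost no cytoplasmic tail, and the signal passes through the CD3 delta, epsilon and gamma chains and the zeta chain (Cd247), whose tyrosine motifs are phosphorylated by Lck and bound by Zap70. Gamma delta T cells use the delta constant gene Trdc with a gamma chain in place of alpha and beta, and CD8, a dimer of the Cd8a and Cd8b1 products, brings Lck to MHC class I.

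On GRCm38 with GENCODE annotation, 3 of the CD3 genes lie side by side on chromosome 9. Cd3g spans chr9:44969572-44980431 on the minus strand, Cd3d chr9:44981786-44987339 on the plus strand and Cd3e chr9:44998740-45009627 on the minus strand. Cd3g and Cd3d point away from each other across 1354 bases. Cd247 lies apart, at chr1:165788681-165877277. Trdc (chr14:54142851-54148868) and Trac (chr14:54220521-54224206) share a locus, with 71652 bases between them. Trbc1 (chr6:41538218-41539881) and Trbc2 (chr6:41546730-41548352) are 6848 bases apart. Cd8b1 (chr6:71322788-71337494) and Cd8a (chr6:71373427-71379173) are neighbours on the same chromosome.

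Trbc1 and Trbc2 are near copies, so reads of the 2 genes can be told apart only where their sequences differ. Their constant-region coding sequences, of 518 bases each, were identical at 495 positions (95.6%). Coding exon 1, of 375 bases, held 1 difference, C260A, written with the Trbc1 base first, the position counted from 1 at the first coding base of the constant region, and the Trbc2 base last. The 41 bases around it are shown because the longest identical run of the pair, 259 bases, ends just before that base, which is in capitals (chr6:41538457-41538497 for Trbc1 and chr6:41546969-41547009 for Trbc2, plus strand).
Trbc1 exon 1 window: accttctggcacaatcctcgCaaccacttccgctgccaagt
Trbc2 exon 1 window: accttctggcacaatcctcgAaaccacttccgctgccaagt
The other 3 coding exons held 22 differences in 143 bases, and they are shown, joined across their introns, because this is the coding stretch in which a read can name its gene. Capitals mark the bases that differ from the other gene.
Trbc1 later coding exons: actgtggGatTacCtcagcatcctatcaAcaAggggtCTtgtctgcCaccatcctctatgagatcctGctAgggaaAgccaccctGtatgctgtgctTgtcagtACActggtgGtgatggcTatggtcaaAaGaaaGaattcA
Trbc2 later coding exons: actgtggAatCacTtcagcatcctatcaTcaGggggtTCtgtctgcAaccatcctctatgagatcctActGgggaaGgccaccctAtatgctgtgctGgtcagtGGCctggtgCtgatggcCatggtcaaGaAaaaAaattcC
Downstream of the coding sequence the 2 transcripts shared no run longer than 8 bases. Nothing in the sources says where along the transcript the reads fell or how reads matching both genes were counted, so single values of Trbc1 and of Trbc2 are uncertain to that extent.

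The promoters of the neighbouring CD3 genes are shown because these 3 genes lie together and their levels are set side by side below. Each is the 250 bases before the start site in RefSeq (GRCm38.p6), read in the direction of the gene, with capitals at matches to the E-box CAGNTG, to AGGAAG, a core bound by Ets factors, and to TGTGGT, a core bound by Runx factors. Both strands were searched, and no matches overlapped.
Cd3d promoter, chr9:44981536-44981785, plus strand: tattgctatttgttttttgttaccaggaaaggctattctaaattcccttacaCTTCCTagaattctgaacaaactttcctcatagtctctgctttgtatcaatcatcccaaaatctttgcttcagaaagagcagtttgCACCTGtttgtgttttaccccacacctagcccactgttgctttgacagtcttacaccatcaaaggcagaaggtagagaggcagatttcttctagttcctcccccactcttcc
Cd3e promoter, chr9:45009612-45009861, minus strand: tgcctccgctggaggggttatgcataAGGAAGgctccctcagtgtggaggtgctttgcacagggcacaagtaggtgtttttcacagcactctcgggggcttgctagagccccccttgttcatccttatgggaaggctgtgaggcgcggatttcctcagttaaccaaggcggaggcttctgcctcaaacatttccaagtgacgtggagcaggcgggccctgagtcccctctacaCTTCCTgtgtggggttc
Cd3g promoter, chr9:44980432-44980681, minus strand: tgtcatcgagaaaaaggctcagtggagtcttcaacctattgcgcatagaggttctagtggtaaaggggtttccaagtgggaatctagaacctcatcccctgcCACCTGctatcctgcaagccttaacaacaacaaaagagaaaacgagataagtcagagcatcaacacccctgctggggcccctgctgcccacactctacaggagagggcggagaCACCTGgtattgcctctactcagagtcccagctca
The Cd3d window held 1 E-box and 1 AGGAAG, the Cd3e window 2 AGGAAG, and the Cd3g window 2 E-boxes, and none held TGTGGT. Among 32851 windows of that length before annotated starts, 44.8% held CAGNTG, 29.5% AGGAAG and 14% TGTGGT.

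After barcodes with fewer than 500 genes or more than 25% mitochondrial counts were left out, 11318 of 12016 barcodes remained, with a median of 26436 counts. The counts look like reads, since the median non-zero value was 7, and so a gene was taken as held by a barcode at 5 or more counts, called the gate here. Clusters were formed without the 10 genes and named from marker lists, which also left the 10 genes out. Although the cells were selected for CD3, only 7891 barcodes fell in T cell-like clusters. Of those, CD8 cells (Cd8a or Cd8b1 at the gate, no Cd4) numbered 4117, Foxp3-negative CD4 cells 713, and Foxp3-positive CD4 cells made up 2.67% of all barcodes kept (293 of them held the receptor set defined below). Double-negative cells, with none of Cd4, Cd8a and Cd8b1 at the gate, numbered 698 with and 1900 without a Ly49 receptor gene (Klra family). A gamma delta T cell-like cluster held 135 cells, and 161 cells with both Cd4 and a CD8 chain were set aside. The barcodes that are not T cells comprised 1513 macrophage-like, 269 dendritic cell-like and 1295 melanoma-like barcodes, with defining markers at 11 of 11, 5 of 10 and 7 of 8 listed genes in at least 20% of their barcodes. Median depth ran from 13205.5 counts in Ly49-negative double-negative cells to 28240 in CD8 cells, 32440.5 in Foxp3-positive CD4 cells, 73905 in macrophage and 159865 in melanoma barcodes, so shares are given with levels in CPM, the gene's counts per 1000000 counts summed over the class. Hashtags A0301 to A0306 were called in 6158 barcodes, and are used as samples of unknown genotype wherever a class had at least 20 of their cells.

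The alpha beta receptor set, defined as at least 1 of Trac, Trbc1 and Trbc2 and at least 1 of the 4 CD3 genes at the gate, was held by most T cells. It was found in 94.9% of CD8 cells (94.2 to 95.6), 91.4% of Foxp3-negative CD4 cells (89.2 to 93.4) and 97.0% of Foxp3-positive CD4 cells (94.4 to 98.6). Ly49-positive double-negative cells held it in 83.7% (80.7 to 86.3) and Ly49-negative ones in 73.2% (71.1 to 75.1). After each cell was thinned to 10000 counts, with 1 count enough, the share was 99.4% in CD8 and in Foxp3-negative CD4 cells, 99.0% in Foxp3-positive CD4 cells and 94.4% in Ly49-positive double-negative cells. Thinning left out 287 CD8, 93 Foxp3-negative CD4, 6 Foxp3-positive CD4 and 52 Ly49-positive double-negative cells with fewer counts. The CD8 and CD4 classes differed there by less than 1 percentage point, near the upper limit of the measure. A gate of 1 count without thinning also gave values that close, 98.7%, 98.5% and 98.7%, so the part of depth cannot be told apart from that of the gate.

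**Figure D1:**
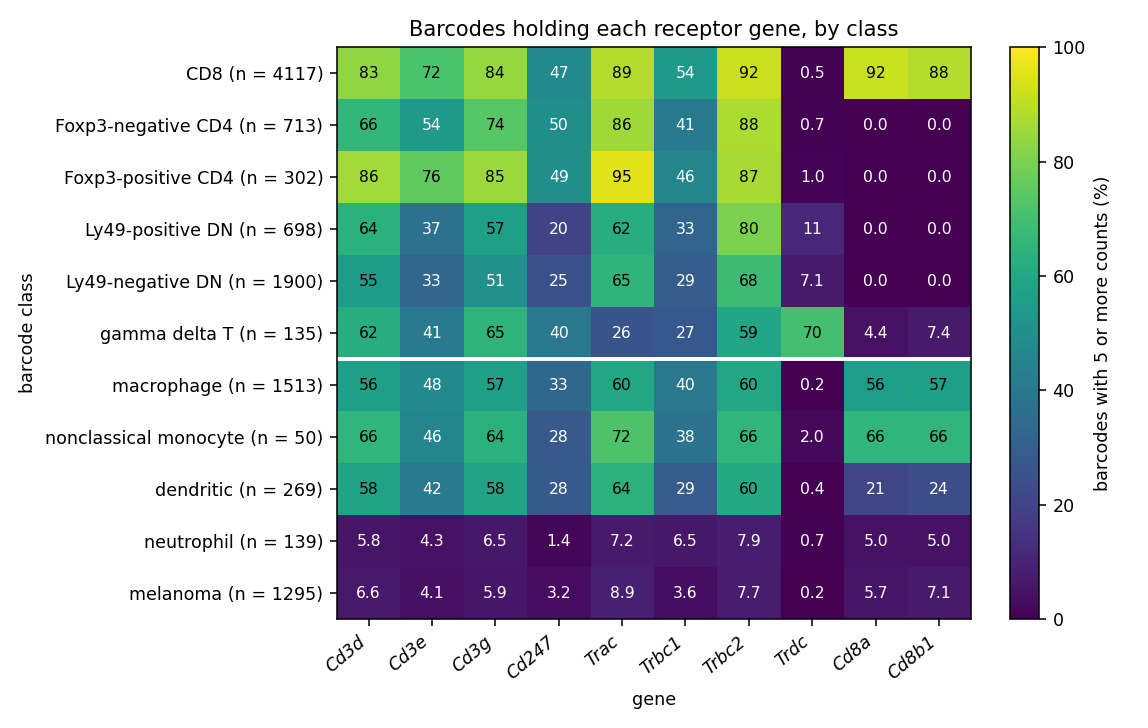
Percent of barcodes with 5 or more counts of each gene (columns) in each class (rows, n barcodes), T cell classes above the white line. Trac is held by 95% of Foxp3-positive CD4 cells and 26% of gamma delta T cells, and the macrophage, monocyte and dendritic rows are far above the neutrophil and melanoma rows; the Cd8a and Cd8b1 values of 0 in the CD4 and double-negative rows are set by the gate.

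Among the CD3 chains, Cd3d, the delta chain, varied least across T cells. Its level was 840 CPM in CD8 cells, 649 in Foxp3-negative CD4, 690 in Foxp3-positive CD4, 681 in Ly49-positive and 670 in Ly49-negative double-negative and 771 in gamma delta T cells. Cd3e, the epsilon chain that pairs with both delta and gamma, stood at 521 CPM in CD8 cells (518 to 525), 397 in Foxp3-negative CD4, 430 in Foxp3-positive CD4 and 312.1 in Ly49-positive double-negative cells (log2 difference from CD8 cells -0.74). In hashtags, the Cd3e difference between Ly49-positive double-negative and CD8 cells ran from -1.13 to -0.11 on the log2 scale and was below 0 in 5 of 5. Cd3g, the gamma chain, was at 1099 CPM in CD8 cells and 589 in Ly49-positive double-negative cells (log2 difference -0.90, and -1.53 to -0.65 in 5 of 5 hashtags). No CD3 gene passed 2-fold in any T cell class against CD8 cells with summed counts. With the mean of per-cell CPM, Cd3g in Ly49-positive double-negative cells came to -1.01, past 2-fold.

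Cd3e and Cd3g were as low in the CD8 cells that share a cluster with the Ly49-positive double-negative cells. That cluster, led by Klra7, Klra1 and Klra6, held 96.4% of the Ly49-positive double-negative cells and 10.2% of the CD8 cells. Within it, Cd3e was at 275 CPM in 421 CD8 cells and 308.8 in 673 Ly49-positive double-negative cells. Cd3g was at 475 CPM in those CD8 cells (461 to 489) and 582 in the double-negative cells, against 615 to 1541 CPM in the CD8 cells of the other clusters with at least 50 of them. So inside this cluster the CD8 cells were at or below the double-negative cells for both genes. The highest Cd3g of CD8 cells, 1541 CPM, was in the cluster led by Lag3 and Prf1 among others, and the next, 1401, in the interferon-induced cluster led by Mx1 and Ifit1.

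Cd247, the zeta chain, showed a different order. It was at 229 CPM in CD8 cells (227 to 232), 392 in Foxp3-negative CD4 cells (383 to 400), 198 in Foxp3-positive CD4 cells, 140 in Ly49-positive double-negative cells and 399 in gamma delta T cells. By hashtag it was 213, 199, 285, 273, 224 and 232 CPM in the CD8 cells of A0301 to A0306. Foxp3-negative CD4 cells had 331 CPM (A0301), 311.5 CPM (A0303), 488 CPM (A0304), 277 CPM (A0305) and 357 CPM (A0306). The CD4 value was above the CD8 value in 5 of 5 hashtags, by 0.13 to 0.84 on the log2 scale, although the 2 ranges overlap between hashtags. Among Foxp3-negative CD4 cells it was highest, at 476 CPM, in the 226 cells of the cluster led by Tnfsf11, Ccl1 and Penk, and lowest, at 212, in 74 cells of the Foxp3-led cluster.

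Trac, the alpha constant gene, was highest in Foxp3-positive CD4 cells, at 1554 CPM (1532 to 1575) against 1268 in Foxp3-negative CD4, 1153 in CD8 and 879 in Ly49-positive double-negative cells. By hashtag it ran from 1312 to 1544 CPM in the 3 hashtags with Foxp3-positive CD4 cells. In the CD8 cells of 6 hashtags it ran from 1092 to 1190 CPM. In Foxp3-negative CD4 cells it ran from 1124 to 1330 CPM over 5 hashtags, which overlaps the Foxp3-positive range. Within hashtags the Foxp3-positive value was above the Foxp3-negative one in 3 of 3, by 0.09 to 0.46 on the log2 scale. Trbc2, the second beta constant gene, went the other way. It was at 740 CPM in Foxp3-positive CD4 cells (726 to 755), against 1410 in Foxp3-negative CD4 cells (1394 to 1427) and 1490 in CD8 cells. The hashtags gave 767 (A0301), 714 (A0305) and 671 CPM (A0306) in Foxp3-positive CD4 cells. In Foxp3-negative CD4 cells they gave 1306 (A0301), 1265 (A0303), 1523 (A0304), 1422 (A0305) and 1197 CPM (A0306). The difference in Trbc2 was -0.99 to -0.77 on the log2 scale in 3 of 3 hashtags. Trbc1 was also lower in Foxp3-positive than in CD8 cells, at 259 against 447 CPM, with log2 differences of -0.80 to -0.53 in 3 of 3 hashtags. Against Foxp3-negative CD4 cells (383 CPM) the direction of Trbc1 varied. The log2 difference ran from -0.72 to 0.48 and was above 0 in 1 of 3 hashtags.

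Against CD8 cells, 3 of the 10 genes were past 2-fold in Foxp3-positive CD4 cells, Trbc2 with Cd8a and Cd8b1, where 8.24% of all examined genes were. Trdc was too low to be examined in Foxp3-positive (12.7 CPM) or Foxp3-negative CD4 cells (5.47) against CD8 cells (2.60). The ratio for Trbc2 was 0.497, and with the mean of per-cell CPM it fell inside 2-fold (log2 -0.83). In Foxp3-negative CD4 cells 2 genes were past 2-fold, Cd8a and Cd8b1, with a background of 5.09%. Both are set by the gate and carry no information here. Between Foxp3-positive and Foxp3-negative CD4 cells, Trdc, Cd8a and Cd8b1 were too low to be examined. None of the others among the 10 genes was past 2-fold there, where 6.96% of examined genes were (2.96% higher and 3.99% lower). Trbc2 came to -0.93 and Cd247 to -0.98 on the log2 scale.

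Trbc2 was also low in Foxp3-negative CD4 cells that share a cluster with the Foxp3-positive ones. The cluster led by Foxp3, Igha, Lrrc32 and Igkc held 97.4% of the Foxp3-positive CD4 cells, and its 294 Foxp3-positive CD4 cells had 730 CPM of Trbc2 (715 to 745). Its 74 Foxp3-negative CD4 cells had 776 CPM (737 to 817) and its 431 Ly49-negative double-negative cells 774 CPM (757 to 790). Double-negative and CD8 cells were not split by Foxp3, so those of this cluster may include cells with Foxp3. Foxp3-negative CD4 cells of the other 2 clusters with at least 50 of them had 1461 and 1416 CPM. The 78 CD8 cells of the Foxp3-led cluster had 1164 CPM, below the 1334 to 1902 CPM of CD8 cells elsewhere. Trac was high in all 4 of these classes within the Foxp3-led cluster. It was at 1565 CPM in the Foxp3-positive CD4 cells (1544 to 1587) and 1543 in the Foxp3-negative ones (1488 to 1600). The Ly49-negative double-negative cells had 1509 CPM of Trac and the CD8 cells 1407. Outside this cluster, Trac was at 1354 and 1100 CPM in Foxp3-negative CD4 cells and 916.5 to 1302 in CD8 cells. Immunoglobulin genes are among the leading genes of the Foxp3-led cluster. The list of 4 plasma cell genes summed to 2.24 CPM in Foxp3-positive and 243 CPM in Foxp3-negative CD4 cells, with none of the 4 in 20% of the cells of either class, and its part in the result was not tested.

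A rearranged beta chain gene is joined to either Trbc1 or Trbc2, and counts of both were common in 1 barcode. Among CD8 cells with either gene at the gate, 54.4% had both (52.9 to 56.0), 43.3% Trbc2 alone and 2.32% Trbc1 alone. Both were held by 44.3% of such Foxp3-negative CD4 cells, 48.0% of Foxp3-positive CD4 cells, 34.2% of Ly49-positive double-negative cells and 60.9% of macrophage barcodes (57.7 to 64.0). Thinned to 10000 counts with 1 count enough, the order of CD8 cells and macrophage barcodes turned, at 67.6% and 53.0%. In 2183 CD8 cells with at least 50 counts of the pair, Trbc1 was absent in 5.96% and made up less than 10% of the pair in 38.3%. It made up 10% to 60% in 57.9%, and the highest share was 84.6%. No CD8 cell of that depth lacked Trbc2, nor did any barcode of that depth in the other 10 classes. Over the summed counts of the T cell classes, the Trbc1 share lay between 20.3% in Ly49-positive double-negative cells and 25.9% in Foxp3-positive CD4 cells, with 23.1% in CD8 cells and in macrophage barcodes alike.

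**Figure D2:**
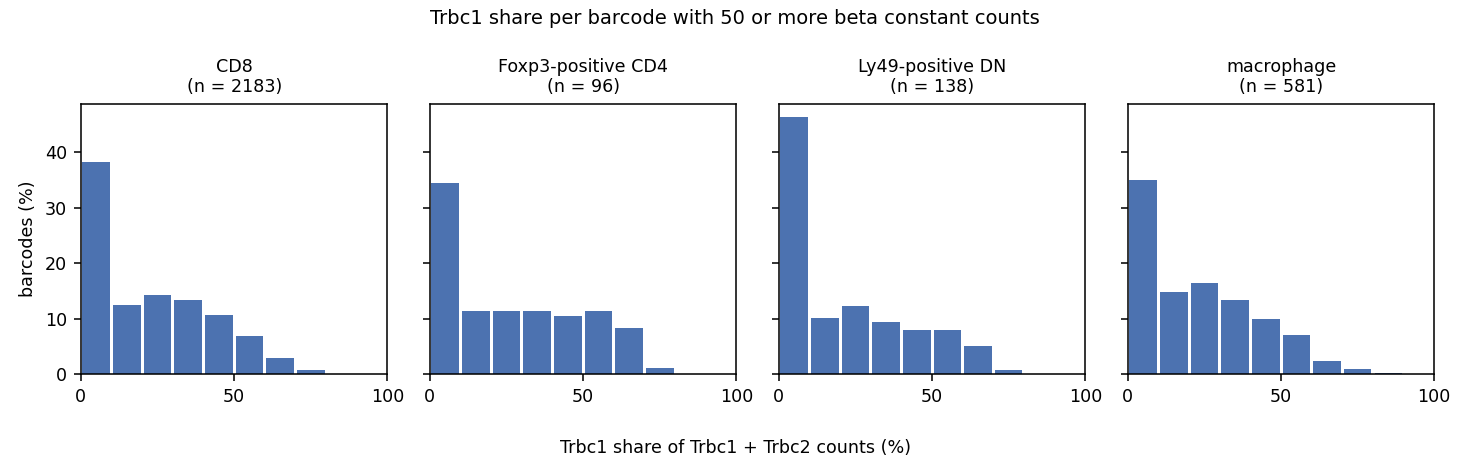
Histograms of the Trbc1 share of Trbc1 plus Trbc2 counts (x axis, %, 10-point bins) over barcodes with 50 or more counts of the pair (y axis, % of those barcodes), for 4 classes. Each class has a tall first bin (38.3% of CD8 cells) and a broad second part that reaches 84.6% in CD8 cells, with no barcode at 90% or above.

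Trdc, the delta constant gene, was high in the gamma delta T cell-like cluster and present in some double-negative cells. It was at the gate in 70.4% of the gamma delta T cell-like cluster (61.9 to 77.9), whose leading genes include Trdc itself although the clustering did not use it, and at 1733 CPM. It was also at the gate in 80 of 698 Ly49-positive double-negative cells (11.5%, 9.19 to 14.1) and 135 of 1900 Ly49-negative ones (7.11%, 5.99 to 8.35). CD8 cells held it in 0.510% (0.316 to 0.779), against 0.232% of melanoma and 0.198% of macrophage barcodes, both of which were deeper. The intervals of these shares overlap. In level it was at 2.60 CPM in CD8 cells, 0.49 in melanoma and 0.59 in macrophage barcodes. At equal depth, thinned to 10000 counts with 1 count enough, the shares were 17.2% in Ly49-positive double-negative cells, 0.627% in CD8 cells and 0.208% in macrophage barcodes. The hashtags gave 6.90% (A0301), 16.0% (A0303), 9.52% (A0304), 9.09% (A0305) and 13.4% (A0306) for Ly49-positive double-negative cells at the gate. In CD8 cells it was at most 0.803% in any of 6 hashtags. In the cluster led by Klra7, the 648 Ly49-negative double-negative cells held Trdc in 19.1%, the 673 Ly49-positive ones in 11.1% and the 421 CD8 cells in 2.61%, while no other cluster passed 1.33% in any of these classes or in CD4 cells with at least 50 cells.

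Among double-negative and gamma delta T cells, those with Trdc mostly lacked Trac. In Ly49-positive double-negative cells Trac was held by 21.3% of the 80 cells with Trdc (12.9 to 31.8) and 67.6% of the 618 without (63.8 to 71.3). In Ly49-negative double-negative cells the shares were 21.5% of 135 (14.9 to 29.4) and 68.8% of 1765 (66.6 to 71.0). The cells with Trdc were the deeper ones in both classes, with medians of 19410.5 against 16346 and 16282 against 12932 counts. A gamma constant gene (Trgc1 to Trgc4) was at the gate in 22.5% of the Ly49-positive cells with Trdc (13.9 to 33.2) against 6.80% without, and in 26.7% against 1.53% of the Ly49-negative ones. Cd3e was held by 42.5% and 36.7% of the Ly49-positive cells with and without Trdc, and the intervals overlap. Trbc2 was held by 65.0% with (53.5 to 75.3) and 82.0% without Trdc (78.8 to 85.0) among Ly49-positive cells, and by 66.7% and 68.6% among Ly49-negative ones. In the gamma delta T cell-like cluster, 62.1% of the 95 cells with Trdc also held Trbc2 and 23.2% held Trac (15.1 to 32.9). Trac was held by 32.5% of the 40 cells without Trdc in that cluster (18.6 to 49.1), and the intervals overlap. Most of the few CD8 and Foxp3-negative CD4 cells with Trdc held Trac, 13 of 21 (61.9%, 38.4 to 81.9) and 4 of 5. The share was higher in CD8 cells without Trdc, at 88.65% (87.6 to 89.6), with intervals that do not overlap. A gamma constant gene was held by 38.1% of CD8 cells with Trdc (18.1 to 61.6) and 3.35% of those without. Foxp3-negative CD4 cells without Trdc held Trac in 85.9%.

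**Figure D3:**
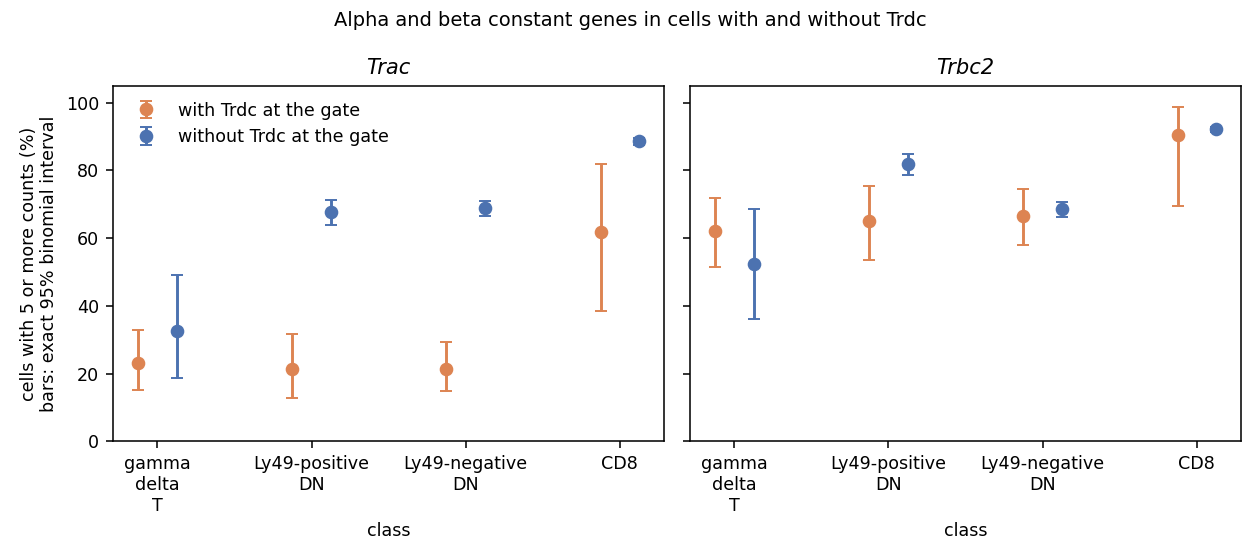
Percent of cells with Trac (left) and Trbc2 (right) at 5 or more counts, in cells with (orange) and without (blue) Trdc, for 4 classes; bars are exact 95% binomial intervals. In Ly49-positive double-negative cells Trac is at 67.6% without and 21.3% with Trdc and Trbc2 at 82.0% and 65.0%; in Ly49-negative ones Trac is at 68.8% and 21.5% and Trbc2 at 68.6% and 66.7%.

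The double-negative cells with Trdc also differed from the gamma delta T cell-like cluster in other genes. Cd163l1 (scavenger receptor of gamma delta T cells) was held by 84.2% of the cluster's cells with Trdc and by none of the 80 Ly49-positive double-negative cells with Trdc. Fcer1g, the Fc receptor gamma chain, was held by 1.05% of the former and 62.5% of the latter. Natural killer cell markers went with the second group: Klrb1c was held by 30% of the Ly49-positive cells with Trdc and 15.9% of those without, and Ncr1 by 10% and 1.62%. Shares were lower in the 135 Ly49-negative double-negative cells with Trdc, at 18.5% for Fcer1g, 7.41% for Klrb1c and 0.741% for Ncr1. Ly49-negative cells without Trdc held these in 7.08%, 1.98% and 0.0567%. Cd163l1 was held by 1.48% of the Ly49-negative cells with Trdc. The NK list of 6 genes, none of them in 20% of Ly49-positive double-negative cells, summed to 617 CPM in Ly49-positive double-negative, 502 in CD8 and 163 in Ly49-negative double-negative cells, and its part in the Trdc values was not tested. Against CD8 cells, 3 of 10 genes were past 2-fold in Ly49-positive double-negative cells (Trdc, Cd8a and Cd8b1), with a background of 17.0%. Cd8a and Cd8b1 are set by the gate in both double-negative classes, which leaves Trdc. The same 3 were past 2-fold in Ly49-negative ones, with a background of 8.28% (5.08% higher and 3.2% lower). In gamma delta T cells 4 were, Trac (409 CPM) besides these, with a background of 29.5%; Trbc2 there was at 795 CPM and reached 2-fold only with the mean of per-cell CPM. Between the 2 double-negative classes Cd8a and Cd8b1 were too low to be examined. None of the others among the 10 was past 2-fold there, where 6.85% of examined genes were (2.15% higher and 4.7% lower).

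The CD8 chains define the CD8 class, so their shares in it, 91.6% for Cd8a and 88.4% for Cd8b1, are partly fixed by the gate. With the class gated on 1 chain alone, Cd8a was held by 90.5% of 3641 cells with Cd8b1 (89.5 to 91.4), and Cd8b1 by 87.4% of 3770 cells with Cd8a (86.3 to 88.4). Both chains were held by 3294 CD8 cells (80.0%), Cd8a alone by 11.6% and Cd8b1 alone by 8.43%. The cells with 1 chain were shallower, at medians of 15289.5 and 15475 counts against 33534, and held the receptor set in 82.6% and 83.3% against 97.9%. A Ly49 gene was held by 18.7% of cells with Cd8a alone, 10.1% of those with both and 6.34% of those with Cd8b1 alone. Across CD8 clusters, Cd8a ran from 598 CPM in the Foxp3-led cluster and 713 in the Klra7-led cluster to 1787 in the interferon-induced one.

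Of 44 other genes of the receptor pathway (kinases, adaptors, phosphatases, coreceptors and receptor partners), 37 had enough counts to be examined in Foxp3-positive CD4 against CD8 cells. Of these, 5 were past 2-fold higher and 5 lower, where 4.88% and 3.36% of all genes were, and the list's median log2 difference was 0.11 beside 0.07 for all genes. The higher ones were Trat1, Cd2, Cd5, Cd6 and Cd4, the last by definition of the class. Trat1, an adaptor bound to the receptor complex, was at 85.1 against 8.02 CPM, and Cd5, a negative regulator of receptor signalling, at 549 against 155. The lower ones were Grap2, Prkcq, Themis, Cblb and Fcer1g. Themis, which acts with the receptor in thymocyte selection, was at 19.96 CPM in Foxp3-positive CD4, 119 in Foxp3-negative CD4 and 121 in CD8 cells. In Foxp3-negative CD4 against CD8 cells 4 of 37 were higher (background 3.44%) and 1 lower (1.65%), with Trat1, Cd5 and Cd6 again among the higher.

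In Ly49-positive double-negative against CD8 cells 7 of 38 examined pathway genes were higher (background 7.77%) and 4 lower (9.23%), with a list median of 0.00 beside -0.01 for all genes. Fcer1g, whose product can take the place of the zeta chain in the receptor complex, was at 484 against 49.2 CPM, where Cd247 was at 140 against 229. Txk, a Tec family kinase, was at 119 against 33.2 CPM. Lck, which phosphorylates the CD3 chains, was at 371 and 367 CPM. Themis (30.2 against 121 CPM), Sla, Ubash3b and Cd6 were the lower ones. In gamma delta T cells 6 of 39 were higher (14.2%) and 13 lower (15.3%), with Trgc1 at 297 against 1.75 CPM and Lck at 64.0 against 367 CPM.

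Receptor genes were also found in barcodes of clusters that were not named as T cells. The receptor set was held by 61.8% of macrophage barcodes (59.3 to 64.3), 68.4% of dendritic barcodes (62.5 to 73.9) and 6.18% of melanoma barcodes (4.93 to 7.63), although melanoma barcodes were the deepest. Thinned to 10000 counts with 1 count enough, the shares were 65.5%, 73.6% and 5.77%, with 71, 8 and 186 shallower barcodes left out. A gate of 1 count without thinning gave 45.9% in melanoma barcodes. By hashtag, the macrophage share ran from 46.1% (A0306) through a median of 63.5% to 74.4% (A0304). For dendritic barcodes it was 72.6% (A0301), 80.0% (A0305) and 59.6% (A0306). For melanoma barcodes it was 3.67% (A0301), 7.50% (A0302), 11.6% (A0304), 6.31% (A0305) and 5.81% (A0306). Melanoma was far below macrophage in each of these 5 hashtags.

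**Figure D4:**
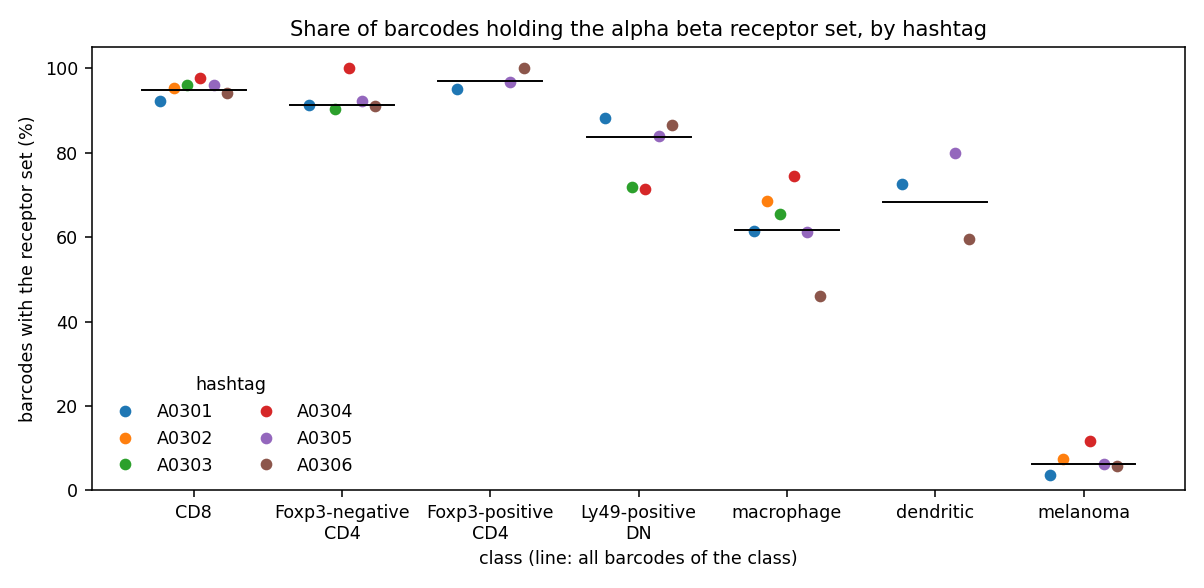
Percent of barcodes holding the alpha beta receptor set (y axis) by class (x axis), 1 point per hashtag with at least 20 barcodes of the class; the line is the value over all barcodes of the class. Macrophage points spread from 46.1% to 74.4%, melanoma points lie at 3.67% to 11.6%.

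In macrophage barcodes the receptor genes stood in nearly the proportions of CD8 cells. Relative to CD8 cells, the level of the 9 genes other than Trdc ran from 34.2% (Cd3e) to 39.4% (Cd3d), a spread of 1.15 times. Cd8a was at 36.9% (460 against 1247 CPM) and Trac at 35.3% (407 against 1153 CPM). Against Foxp3-positive CD4 cells the 7 genes other than Trdc, Cd8a and Cd8b1 ran from 26.2% (Trac) to 74.6% (Trbc2), a spread of 2.85 times, where the same 7 had 1.15 times against CD8 cells. All 9 were below CD8 cells in 6 of 6 hashtags. In dendritic barcodes the spread of the 9 genes against CD8 cells was 3.52 times, from 13.5% (Cd8a) to 47.4% (Trac). Over the 7 genes without Cd8a and Cd8b1 it was 1.84 times against CD8 cells, from 25.8% (Trbc2) to 47.4% (Trac), and 1.48 times against Foxp3-positive CD4 cells, from 35.2% (Trac) to 52.0% (Trbc2). In melanoma barcodes the levels were 1.16% (Cd8a) to 2.02% (Cd247) of those in CD8 cells. All 9 were past 2-fold lower than in CD8 cells in each of these classes, and Trdc was too low to be examined. Of all examined genes, 7.82% were lower in macrophage barcodes (14.1% higher, 21.9% in either direction). In dendritic barcodes 6.54% were lower (11.7% higher, 18.2% in either direction), and in melanoma barcodes 23.9% (25.5% higher, 49.4% in either direction).

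**Figure D5:**
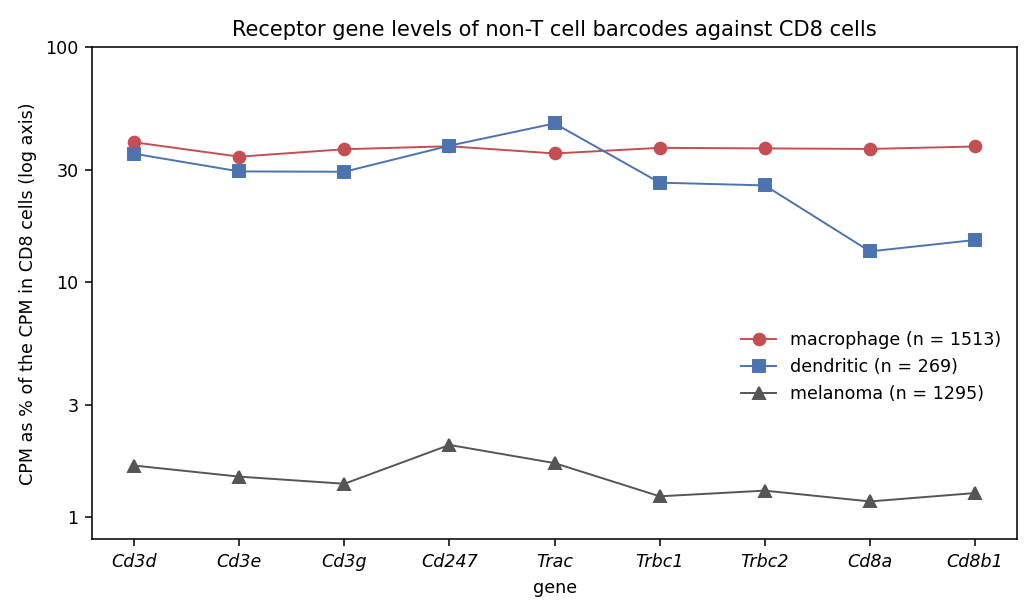
Level of 9 receptor genes in macrophage, dendritic and melanoma barcodes as a percent of the level in CD8 cells (log axis). The macrophage line is flat between 34.2% and 39.4%, the dendritic line falls to 13.5% at Cd8a, and the melanoma line lies between 1.16% and 2.02%.

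Macrophage barcodes that held the set had as many counts of it as CD8 cells. In the 935 macrophage barcodes with the set, the summed counts of the 4 CD3 and 3 alpha beta constant genes had a median of 222 (10th to 90th percentile 70.0 to 582), against 188 (60.0 to 471) in CD8 cells with the set. The median was 122.5 in 184 dendritic and 110 in 80 melanoma barcodes with the set. In barcodes without the set it was 1 in macrophage, 2 in dendritic and 3 in melanoma barcodes. These medians are over barcodes that passed the gate, which sets a lower limit on the counts in each class.

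The CD8, Cd4 and Foxp3 counts found with the set differed between macrophage and dendritic barcodes. Among macrophage barcodes with the set, 89.4% held Cd8a or Cd8b1 without Cd4 (87.3 to 91.3) and 2.35% Cd4 without either CD8 chain. Among dendritic barcodes with the set these were 27.2% (20.9 to 34.2) and 24.5% (18.4 to 31.3). Foxp3, the transcription factor of regulatory T cells, was at the gate in 47.3% of dendritic (39.9 to 54.8) and 3.96% of macrophage barcodes with the set, and in 7.06% and 0.173% of those without it. Melanoma barcodes with the set held Cd8a or Cd8b1 without Cd4 in 57.5% (45.9 to 68.5) and Foxp3 in 7.50%. Dendritic cells of mice can express Cd8a and Cd4 themselves, and the part of their own expression in these shares was not tested. Cd8b1 was at 15.1% of its CD8 cell level in dendritic barcodes and Cd8a at 13.5%.

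Other T cell genes were held more often in barcodes with the set. Thy1 was held by 94.2% of macrophage barcodes with the set and 7.27% of those without, Cd2 by 72.9% and 2.77%, and Lck by 68.2% and 2.60%. The macrophage gene Csf1r was held by 87.2% and 83.2%, and C1qa by 80.9% and 70.1%. The melanoma gene Pmel was also held more often in macrophage barcodes with the set, by 31.8% (28.8 to 34.9) against 16.1% (13.2 to 19.3). Macrophage barcodes with the set had a median of 92488 counts and 4658 genes, against 42433.5 counts and 2827.5 genes without. Melanoma barcodes had 201547 and 155481 counts, with Pmel held by 80 of 80 with the set and 97.8% without. Scrublet scores, a measure of likeness to simulated doublets, had medians of 0.0959 and 0.0470 in macrophage barcodes with and without the set, and 0.131 and 0.0567 in melanoma barcodes. Among macrophage barcodes 6.42% with the set carried 2 hashtags (4.93 to 8.18) and 4.84% without it (3.24 to 6.93). Among melanoma barcodes these were 12.5% (6.16 to 21.8) and 2.47% (1.67 to 3.51), and among CD8 cells with the set 2.15%. Depth, Scrublet score and, in melanoma barcodes, the share with 2 hashtags were thus higher where the set was held, and their part in the result was not tested.

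The pattern of the summed CD3 genes over the 11 classes was most like that of Thy1 (Pearson r = 0.993 on log2(CPM + 10)), then Ptprcap (0.984), Fli1 (0.981), H2-Q7 and H2-D4 (both 0.98), among 3679 genes with at least 100 CPM in 1 class. For Trdc the most alike were Nr1d2 (0.961), Trgc1 (0.959), Zbtb4 (0.952), Clnk (0.947) and Vps28 (0.946). The classes come from 1 library and differ in depth, so these values are descriptions.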

How the data were processed

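One mRNA library and 1 hashtag library came from the same capture. The authors deposited whole-number counts per gene and barcode in both. Per the submitters' processing notes, cutadapt 2.10, Bowtie2 (2.3.4.1 and 2.4.2), R 3.5.3 and the build GRCm38 were used; no source used here says whether counts are reads or molecules. PCR reads are not independent molecules, so if the counts are reads, the Poisson intervals are narrower than the counting error of molecules. No interval covers differences between cells of a class in level, or between hashtags. Barcodes in the table held 4138 to 892142 counts, and 11808 of 12016 were also in the hashtag table.

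Barcodes were clustered with scanpy 1.11.5 (3000 variable genes without the 10 genes, 40 components, 20 neighbours, Leiden resolution 1) and named from marker lists; a list needed 3 markers in 20% of a cluster's barcodes and a mean ratio of 2 to the rest, a T cell name 5 T cell markers. These limits were set after the clusters were seen. The genes, lists and gates were chosen with earlier results of these data known. Scrublet called 1 barcode, so it did not work as a caller and no doublets were removed. A hashtag was called by a log likelihood ratio over background.

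Shares use a gate of 5 counts. Levels are summed counts per class as CPM, and folds use log2(CPM + 1) over genes with 100 counts and 20 CPM in either class; a gene was called past 2-fold. Named were the 10 genes, the pathway genes past 2-fold and the 5 genes most alike in pattern; host cell and subset markers were named after their values were seen. The fold step was tested on simulated class sums drawn as Poisson counts, without differences between cells or PCR copies. That checks the computation only, and cannot show how often real class sums pass 2-fold without a true difference. Receptor variable segments were not analysed here. Sequences are from GENCODE vM21 transcripts and, for 3 promoters, RefSeq. Alternatives were other gates, thinning to 10000 counts, other clusterings, no quality filter, leaving out high Scrublet scores, mean per-cell CPM and no CPM minimum.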

Additional observations from a re-analysis of the deposited data

Results flagged for a closer look

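Among Foxp3-negative CD4 cells, hashtag A0304 stood apart from the others in the share of cells holding the receptor set: all 21 of its cells (100%) held it, against 90.3% to 92.2% in the other hashtags. The gap between A0304 and its nearest neighbour was larger than Dixon's limit for 5 samples. A0304 had the fewest such cells, against 31 (A0303) to 127 (A0301) in the others. Dixon's limit takes no account of the number of cells behind each share. Chance flags about 1 in 20 groups, of which 5 were examined.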

How the results depend on the processing

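Of 94 values under alternatives, 64 stayed near the main value and 30 moved. With a gate of 1 count, the receptor set was held by 98.71% of CD8 cells, 98.46% of Foxp3-negative and 98.68% of Foxp3-positive CD4 cells, 94.99% of Ly49-positive double-negative cells, 70.85% of macrophage, 78.07% of dendritic and 45.87% of melanoma barcodes, and both Trbc genes by 78.27% of CD8 cells and 75.47% of macrophage barcodes with either. A gate of 10 counts gave, in the same order, 88.44%, 80.22%, 93.05%, 65.47%, 58.96%, 60.59% and 4.402%, and 45.47% and 52.50%. Thinning to 10000 counts with a gate of 1 gave 99.35%, 99.35%, 98.99% and 94.43% for the 4 T cell classes and 65.53% for macrophage barcodes, and 67.56% and 52.95% for both Trbc genes, so that the CD8 share with both was above the macrophage share there and below it at the gate of 5. Without the 5% of barcodes with the highest Scrublet scores the share was 59.19% in macrophage and 3.615% in melanoma barcodes. Without a CPM minimum, 1 gene was past 2-fold between Foxp3-positive and Foxp3-negative CD4 cells in place of 0. The causes were not tested. Other resolutions, clustering with the 10 genes and no quality filter kept all 9 shares near their main values. Shares at a fixed gate rise with depth, which differed between the classes. No paired analysis was possible because the labels give no groups that share replicate numbers and no test was made; differences between classes within each hashtag are given as values in the report.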

Other observations

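Nonclassical monocyte-like barcodes (Ace, Ear2 and Treml4 among the leading genes) held the receptor set in 35 of 50 (70.0%, 55.4 to 82.1). Cd8a in them was at 75.8% of its level in CD8 cells and Cd3e at 53.2%. Neutrophil-like barcodes, shallow at a median of 9287 counts, held the set in 10 of 139 (7.19%, 3.504 to 12.83). Ptcra, Rag1 and Rag2, which mark receptor assembly in the thymus, reached no more than 4.92, 0.00619 and 1.82 CPM in any class.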
